A study of Mus musculus with 6 samples.

Results

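The genes of cholesterol and fatty acid synthesis were followed in libraries labelled as mouse podocytes, the epithelial cells that form the filtration slits of the kidney. A list of 38 genes was drawn up by pathway membership, with earlier results of these data known. It held 17 sterol synthesis enzymes, 5 regulators (SREBP transcription factors and their controlling proteins), 14 fatty acid synthesis genes and 2 sterol transport genes. Of these, 37 were found among 36889 annotated genes by their Ensembl identifier, and all 37 passed the filter on low counts; Hmgcs1, the enzyme that makes HMG-CoA, was not analysed here because its identifier matched no exonic part. The groups were 3 libraries of podocytes labelled CD2BP2 Knockout (KO) and 3 labelled Wildtype (WT), both on a C57BL/6 background. The CD2BP2 protein, which has a GYF domain, associates with the U5 particle of the splicing machinery, and the series addresses splicing and the integrity of podocytes.

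The floxed allele carries a loxP site behind exon 3, and the Cre driver used in podocytes is not given in the sources used here. The labels' treatment text instead describes mice 6 to 10 weeks old, MxCre-positive or littermate controls, that received 300 µg of poly(I:C), and macrophages grown from their bone marrow; it goes against the podocyte source given for the same samples. Separate animals are not named for the libraries, so each p-value reflects the variation among these 6 libraries alone, and that variation could be technical. Total counts over exonic parts (stretches of exon between annotated exon edges) were 214948912 to 255554573 in KO and 186022084 to 231312370 in WT. The targeted gene Cd2bp2 had 48.4, 47.3 and 51.0 CPM in KO, against 61.0, 61.8 and 60.8 CPM in WT, where CPM is the count scaled to library size. Summed over its exonic parts, it was reduced and not lost in the libraries labelled KO, with a log2 fold change of -0.32 (SE 0.05, edgeR adjusted p = 0.0297). The edgeR adjusted p was 0.0606 to 0.146 without KO1, KO2 or any 1 WT library. This sum cannot show whether the exons targeted by the floxed allele were lost. All 8 listed podocyte markers were detected in every library, and the slit diaphragm gene Nphs1 averaged 2014 ± 192 CPM in KO and 2902 ± 121 CPM in WT (SD, n = 3 each). Markers of other glomerular cells stood at like levels: the endothelial gene Kdr averaged 1701 ± 79.8 CPM in KO and 1790.5 ± 56.9 CPM in WT, and the mesangial gene Itga8 1401 ± 182 CPM in KO and 1341 ± 151 CPM in WT (SD, n = 3 each), so transcripts of several glomerular cell types were present beside those of podocytes. Because these are bulk samples, fewer cells of a type and less RNA per cell cannot be told apart.

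Cells make cholesterol from acetyl-CoA through mevalonate, isoprenyl pyrophosphates, squalene and a series of sterols, and they make long fatty acids from the same acetyl-CoA through malonyl-CoA, fatty acid synthase, elongases and desaturases. Both branches are transcribed under the SREBP factors, which are held in the endoplasmic reticulum by SCAP and the INSIG proteins when sterols are plentiful and are cut and released when sterols fall. SREBP-2 is best known for the sterol genes and SREBP-1c for the fatty acid genes. In podocytes, membrane cholesterol is known for its place in the slit diaphragm, where podocin binds it.

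The sequences just before the transcription starts show which known promoter elements the genes carry. RefSeq promoters on GRCm38.p6 were found for 30 of the 37 genes, as 40 windows of 250 bases ending at the start site, and both strands were searched. The sterol regulatory element written TCACNCCAC was in 0 of the 40 windows, against 1.05% of all 32851 promoters. The E-box CACGTG was in 7 of 40 windows, against 6.02% of all promoters. The CCAAT box (CCAAT), the pattern bound by NF-Y, was in 24 of 40, against 33.8% of all promoters. The GC box GGGCGG, the pattern bound by Sp1, was in 28 of 40, against 32.7% of all promoters. In 1 case among 109 matches, matches of different patterns overlapped. A match is a description of these letters and not a binding site, and several windows belong to the same gene. Fdps, Fdft1, Sqle, Scd1, Scd2, Fads1 and Stard4 had no window. Only exact letters within 250 bases were searched, so 0 matches do not show that the genes lack a sterol regulatory element.

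The split by branch counts genes with a match in any of their windows, so the shares per promoter above are not a like background. The CCAAT box was found in 13 of 13 sterol synthesis genes with a window and in 6 of 11 fatty acid genes. The GC box was found in 12 of the 13 sterol genes and in 6 of the 11 fatty acid genes. Shown here are the windows of the 3 genes that passed the test (Elovl7, Elovl6 and Me1, for which the start farther upstream is given), of the regulators Insig1 and Srebf1, whose downstream start is described below, and of Mvd, the sterol enzyme with the smallest p. Capitals mark matches to the 4 patterns on either strand.
Elovl7, chr13:108214154-108214403, plus strand: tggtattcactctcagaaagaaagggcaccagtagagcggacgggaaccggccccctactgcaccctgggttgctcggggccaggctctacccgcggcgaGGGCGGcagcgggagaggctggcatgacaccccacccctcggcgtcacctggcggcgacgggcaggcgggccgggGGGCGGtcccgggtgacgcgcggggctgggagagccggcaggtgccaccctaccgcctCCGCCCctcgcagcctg
Elovl6, chr3:129532136-129532385, plus strand: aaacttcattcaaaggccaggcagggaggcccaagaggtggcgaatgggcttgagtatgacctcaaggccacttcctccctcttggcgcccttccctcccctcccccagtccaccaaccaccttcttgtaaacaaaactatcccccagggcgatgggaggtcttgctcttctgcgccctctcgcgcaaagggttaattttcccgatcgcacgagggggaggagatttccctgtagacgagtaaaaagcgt
Me1, chr9:86695915-86696164, minus strand: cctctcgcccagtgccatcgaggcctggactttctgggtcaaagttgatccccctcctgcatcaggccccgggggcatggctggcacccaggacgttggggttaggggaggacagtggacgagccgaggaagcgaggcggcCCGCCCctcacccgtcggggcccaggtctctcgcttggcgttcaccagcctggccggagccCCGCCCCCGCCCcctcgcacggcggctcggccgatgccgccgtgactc
Insig1, chr5:28071162-28071411, plus strand: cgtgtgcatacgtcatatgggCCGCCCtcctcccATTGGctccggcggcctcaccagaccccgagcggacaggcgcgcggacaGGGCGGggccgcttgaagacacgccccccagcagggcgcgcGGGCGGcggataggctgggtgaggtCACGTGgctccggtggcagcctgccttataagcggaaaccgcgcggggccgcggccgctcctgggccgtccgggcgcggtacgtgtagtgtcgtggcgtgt
Srebf1, chr11:60210472-60210721, minus strand: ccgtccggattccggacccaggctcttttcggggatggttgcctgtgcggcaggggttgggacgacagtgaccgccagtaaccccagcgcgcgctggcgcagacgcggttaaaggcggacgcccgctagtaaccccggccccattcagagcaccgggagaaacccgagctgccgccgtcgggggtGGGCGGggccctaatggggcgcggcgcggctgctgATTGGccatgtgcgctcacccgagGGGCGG
Mvd, chr8:122443423-122443672, minus strand: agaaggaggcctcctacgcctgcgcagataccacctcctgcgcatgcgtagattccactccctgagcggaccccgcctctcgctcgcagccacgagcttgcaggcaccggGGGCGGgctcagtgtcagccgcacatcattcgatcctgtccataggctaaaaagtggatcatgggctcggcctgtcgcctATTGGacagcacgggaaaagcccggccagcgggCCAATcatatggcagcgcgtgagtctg
The Elovl6 window held none of the 4 patterns, and the windows shown for Elovl7 and Me1 held 3 GC boxes each and no CCAAT box. The other Me1 window, not shown, held 1 CCAAT box, and Me1 is among the 6 of 11 fatty acid genes counted above. Mvd held 2 CCAAT boxes and a GC box, Srebf1 a CCAAT box and 2 GC boxes, and Insig1 an E-box, a CCAAT box and 3 GC boxes.

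Across the 37 genes, 3 rose in the KO libraries and none fell by edgeR's quasi-likelihood test over all genes (Benjamini-Hochberg adjusted p under 0.05). All 3 belong to the fatty acid branch: the elongases Elovl7 and Elovl6 and the malic enzyme Me1. They are 8.11% of the 37 genes, where 3.37% of the 19742 genes tested were called in either direction, 1.62% higher in KO and 1.76% lower. The 16 sterol synthesis genes, the 5 regulators and the 2 transport genes held 0 called genes. At an unadjusted p under 0.05, 8 of the 37 were higher in KO and 2 lower, or 21.6% and 5.41%, against 11.5% and 11.2% of all genes and 22.6% in both directions together. DESeq2 called 8 of the 37 genes and 14.0% of all genes: 6 were higher in KO, among them Insig1 and Mvd from outside the fatty acid branch, and 2 were lower, Scd2 and Elovl5. Limma-voom called 2 of the 37 and 2.49% of all genes. With edgeR and 1 library left out, 0 of the 37 were called without KO1, WT1, WT2 or WT3, 1 without KO2 (Elovl6) and 2 without KO3 (Me1 and Insig1). Over all genes, those fits called 75, 39, 31 and 254 without KO1, WT1, WT2 and WT3, 109 without KO2 and 251 without KO3. The full fit called 666.

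**Figure D1:**
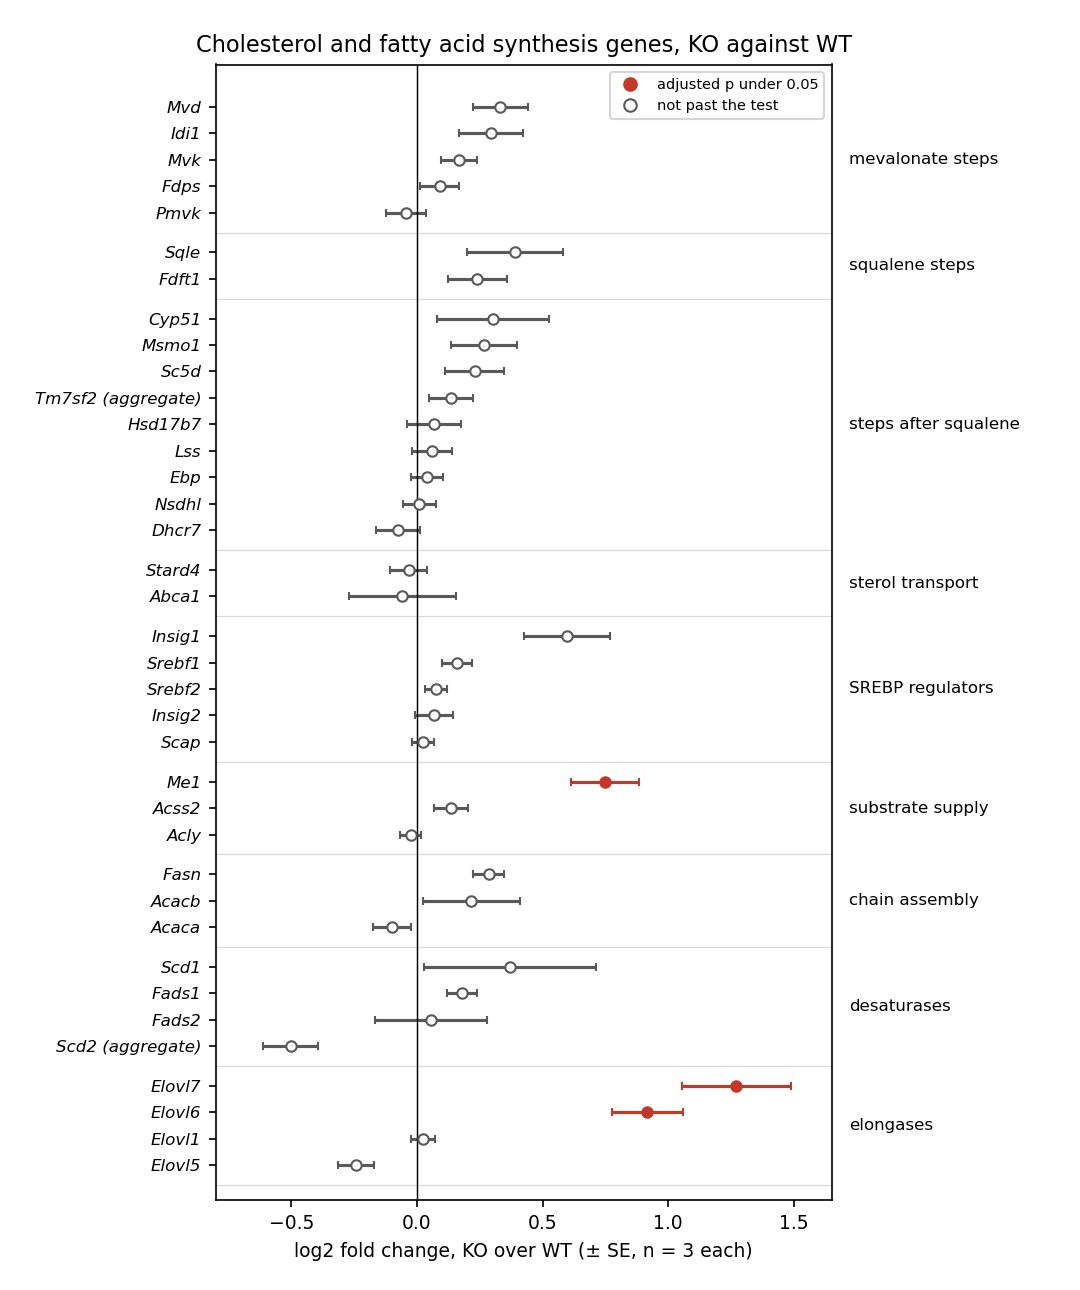
Log2 fold change of KO over WT libraries for the 37 genes (x axis), grouped by role down the page, with bars for the standard error of the edgeR fit. The 3 called genes, Elovl7 at 1.27, Elovl6 at 0.92 and Me1 at 0.75, stand to the right of the other genes, and Scd2 at -0.50 stands to the left.

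The direction was shared more widely than the calls. The log2 fold change was above 0 in 29 of the 37 genes (78.4%), against 50.9% of all genes tested. Among the sterol synthesis genes it was above 0 in 14 of 16, among the fatty acid genes in 10 of 14, among the regulators in 5 of 5, and in neither transport gene. In 10 genes every KO library lay above every WT library (27.0%, against 14.1% of all genes). These 10 were Mvk, Mvd, Srebf1, Srebf2, Insig1, Fasn, Elovl6, Elovl7, Fads1 and Me1. In Scd2 and Elovl5 every KO library lay below every WT library (5.41%, against 14.8% of all genes), and in the other 25 genes the groups overlapped.

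Among the regulators, the feedback gene Insig1 differed most. Insig1 (chr5:28397952-28405201, plus strand, NCBIM37), which anchors SCAP in the endoplasmic reticulum and is itself an SREBP target, had 38.1, 39.6 and 26.3 CPM in KO, against 23.7, 25.1 and 20.0 CPM in WT. KO3, the lowest KO library, lay just above WT2, the highest WT library. The log2 fold change was 0.60 (SE 0.17) and did not pass the edgeR test (adjusted p = 0.113); without KO3 it was 0.76 and passed (edgeR adjusted p = 0.0473).

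Srebf1 (chr11:60012591-60036083, minus strand), which encodes SREBP-1, had 74.4, 86.0 and 79.4 CPM in KO, against 72.5, 70.8 and 71.3 CPM in WT. The WT libraries lay close together and below all 3 KO libraries, and the log2 fold change was 0.16 (SE 0.06, edgeR adjusted p = 0.189). Srebf2, which encodes SREBP-2, had 120.2, 116 and 115 CPM in KO, against 113, 109 and 111 CPM in WT. Its log2 fold change was 0.08 (SE 0.04, edgeR adjusted p = 0.341). The second anchor Insig2 had a log2 fold change of 0.07, and the escort protein Scap one of 0.02. Neither had groups that separated.

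The sterol synthesis branch held no gene past the test, but nearly all its log2 fold changes leaned to the same side. They ran from -0.07 to 0.39 with a median of 0.15, against a median of 0.01 over all genes tested. Mvd, the decarboxylase that makes isopentenyl pyrophosphate, had 5.92, 6.85 and 6.07 CPM in KO, against 4.72, 4.83 and 5.43 CPM in WT (log2 fold change 0.33, SE 0.11, edgeR adjusted p = 0.152). Mevalonate kinase Mvk had 17.4, 19.0 and 18.9 CPM in KO, against 16.6, 15.5 and 17.2 CPM in WT (log2 fold change 0.17, SE 0.07, edgeR adjusted p = 0.230). These were the 2 sterol genes whose groups did not overlap. Phosphomevalonate kinase Pmvk stood at -0.04, the isomerase Idi1 at 0.29 and the farnesyl pyrophosphate synthase Fdps at 0.09 on the log2 scale.

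Of the 2 squalene steps, 1 held the highest log2 fold change of the branch. Squalene epoxidase Sqle, a rate-limiting step of the pathway, had 24.2, 24.9 and 18.1 CPM in KO, against 20.9, 16.8 and 13.4 CPM in WT. KO3 lay below WT1, and the log2 fold change was 0.39 (SE 0.19, edgeR adjusted p = 0.282). Squalene synthase Fdft1 had a log2 fold change of 0.24 (SE 0.12). After squalene, the lanosterol demethylase Cyp51 had 34.2, 43.3 and 35.4 CPM in KO, against 27.9, 22.4 and 41.2 CPM in WT (log2 fold change 0.30, SE 0.22, edgeR adjusted p = 0.473). Here WT3 stood apart from the other WT libraries and above 2 of the 3 KO libraries.

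None of the remaining steps after squalene passed the edgeR test. The sterol methyl oxidase Msmo1 had a log2 fold change of 0.27 (SE 0.13) and the desaturase Sc5d one of 0.23 (SE 0.12). Lss, Nsdhl, Hsd17b7 and Ebp lay between 0.01 and 0.07, and Dhcr7, the last step of the Kandutsch-Russell route, stood at -0.07. Tm7sf2, a sterol reductase, shared an annotation unit with Vps51 and Zfpl1, so its 0.13 belongs mostly to those neighbours. Its own 12 parts held 2.23% of that unit's counts and gave 2.45, 1.57 and 3.09 CPM in KO, against 1.77, 1.90 and 1.91 CPM in WT. On those parts alone the groups overlapped. Summed over the branch, sterol synthesis genes held 456 ± 20.4 CPM in KO and 412 ± 8.40 CPM in WT (SD, n = 3 each). This sum takes in the whole unit that holds Tm7sf2, at 100.2 ± 7.82 CPM in KO and 91.3 ± 8.47 CPM in WT, mostly from its neighbours. The unit is also counted among the 14 of 16 sterol genes with a log2 fold change above 0.

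The fatty acid branch was split between its members, and the elongases show it most clearly. Elovl7 (chr13:109004598-109077299, plus strand), which lengthens saturated very long chains, had 17.5, 23.7 and 14.9 CPM in KO, against 8.98, 5.99 and 8.27 CPM in WT. All KO libraries lay well above all WT libraries, and KO2 was the highest. It rose 2.41-fold, a log2 fold change of 1.27 (SE 0.22, edgeR adjusted p = 0.0402). With any 1 library left out the log2 fold change stayed between 1.06 and 1.41, while the edgeR adjusted p was 0.0503 without KO3, 0.0749 without WT3, 0.0872 without KO2, 0.104 without WT1, 0.110 without KO1 and 0.145 without WT2.

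Elovl6 (chr3:129235304-129341413, plus strand), which lengthens palmitate to stearate, had 16.3, 22.1 and 16.4 CPM in KO, against 10.0, 8.81 and 10.2 CPM in WT. The groups did not overlap, and KO2 was again the highest library. It rose 1.89-fold, a log2 fold change of 0.92 (SE 0.14, edgeR adjusted p = 0.0329). The call held without KO2 (log2 fold change 0.75, edgeR adjusted p = 0.0497) and was lost without KO3, WT3, KO1, WT1 or WT2, where the adjusted p was 0.0517, 0.0656, 0.0772, 0.104 and 0.147.

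The other 2 elongases are the abundant ones and did not follow. Elovl5, which lengthens polyunsaturated chains, had 122, 125 and 107 CPM in KO, against 137, 135 and 147 CPM in WT. Every KO library lay below every WT library, with a log2 fold change of -0.24 (SE 0.07, edgeR adjusted p = 0.122; DESeq2 adjusted p = 0.0367). Elovl1 stood at 0.02 on the log2 scale. Per kilobase of exon, Elovl7 averaged 3.44 CPM per kb in KO and 1.43 CPM per kb in WT, and Elovl6 3.07 in KO and 1.63 in WT, while Elovl5 averaged 33.5 in KO and 39.7 in WT and Elovl1 32.1 in KO and 31.6 in WT. The elongases that rose thus stayed the scarcest of the 4, and the summed elongase level was 243 ± 16.6 CPM in KO and 243 ± 11.5 CPM in WT (SD, n = 3 each).

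**Figure D2:**
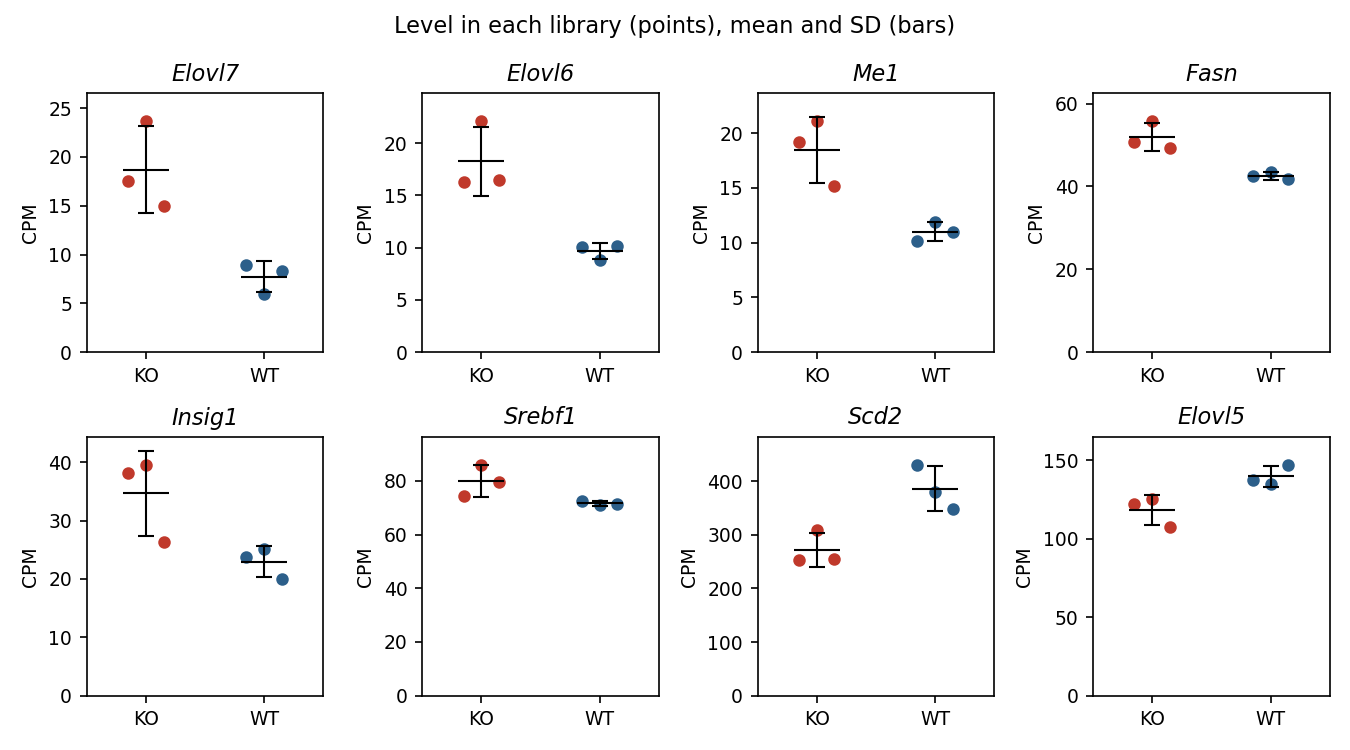
CPM (y axis, starting at 0) of 8 genes in the KO libraries (left of each panel) and the WT libraries (right), each point a library, with bars for the mean and SD of 3 libraries. Elovl7, Elovl6, Me1, Fasn, Insig1 and Srebf1 have all KO points above all WT points, and Scd2 and Elovl5 have all KO points below all WT points.

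Among the genes that supply substrate, Me1 rose. Me1 (chr9:86474970-86589947, minus strand), the cytosolic malic enzyme that makes NADPH for chain building, had 19.2, 21.1 and 15.2 CPM in KO, against 10.1, 11.9 and 11.01 CPM in WT. The groups did not overlap, and KO3 was the lowest KO library. The rise was 1.68-fold, a log2 fold change of 0.75 (SE 0.14, edgeR adjusted p = 0.0447). The call held without KO3 (log2 fold change 0.87, edgeR adjusted p = 0.0367), and without WT3, KO2, WT1, KO1 or WT2 the adjusted p was 0.0837, 0.107, 0.129, 0.139 and 0.153. ATP citrate lyase Acly, which makes cytosolic acetyl-CoA, had 202, 207 and 198 CPM in KO, against 208, 208 and 202 CPM in WT, a log2 fold change of -0.02 (SE 0.04). The acetyl-CoA synthetase Acss2 stood at 0.13 (SE 0.07).

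Chain assembly gave a small difference in fatty acid synthase. Fasn (chr11:120667254-120685492, minus strand) had 50.8, 55.7 and 49.2 CPM in KO, against 42.5, 43.6 and 41.7 CPM in WT. The groups did not overlap, and the fold of 1.22, or 0.29 on the log2 scale (SE 0.06), missed the threshold at an edgeR adjusted p of 0.0606. The acetyl-CoA carboxylases, which make malonyl-CoA, had log2 fold changes of -0.10 (Acaca, SE 0.08) and 0.22 (Acacb, SE 0.19), and their groups overlapped.

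The desaturases pointed in different directions. Scd2 (chr19:44368166-44381354, plus strand), a stearoyl-CoA desaturase, had 254, 309 and 255 CPM in KO, against 431, 379 and 349 CPM in WT. It had the highest level per kilobase of all 37 genes, at 50.0 CPM per kb in KO and 70.8 CPM per kb in WT. Every KO library lay below every WT library, and the log2 fold change of -0.50 (SE 0.11) missed the threshold at an edgeR adjusted p of 0.0653, while DESeq2 called it lower in KO (adjusted p = 0.000805). Scd2 shares its annotation unit with Mir5114, and the 7 parts that are Scd2 alone, 96.3% of the counts, gave 263 ± 30.7 CPM in KO and 372 ± 40.6 CPM in WT (SD, n = 3 each).

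Its paralog Scd1, a classic SREBP-1c target, had 46.8, 62.9 and 46.5 CPM in KO, against 34.5, 23.7 and 62.4 CPM in WT. The WT libraries covered a wider range than the KO libraries, and the log2 fold change was 0.37 (SE 0.34, edgeR adjusted p = 0.569). The delta-5 desaturase Fads1 had 96.1, 99.6 and 99.2 CPM in KO, against 93.4, 85.8 and 81.3 CPM in WT (log2 fold change 0.18, SE 0.06, edgeR adjusted p = 0.154). The delta-6 desaturase Fads2 stood at 0.06 (SE 0.22). Reads of close paralogs such as Scd1 and Scd2 may be split by the authors' counting, and how shared reads were treated is not given in the sources used here.

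In sterol transport, neither gene separated the groups. Abca1, the cholesterol exporter, had 34.9, 56.4 and 43.4 CPM in KO, against 58.5, 42.4 and 39.3 CPM in WT, with a log2 fold change of -0.06 (SE 0.21). Stard4, a sterol carrier of the cytosol, had a log2 fold change of -0.03 (SE 0.07).

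Set side by side, the 2 branches had like medians and unlike spreads. The median log2 fold change was 0.16 over the 14 fatty acid genes and 0.15 over the 16 sterol genes, with ranges of -0.50 to 1.27 and -0.07 to 0.39. Library by library, the median log2 ratio to the WT mean was 0.12, 0.22 and 0.05 in KO and 0.06, -0.02 and -0.02 in WT for the sterol genes. For the fatty acid genes it was 0.04, 0.27 and 0.11 in KO and 0.00, -0.04 and 0.06 in WT. In each branch 1 KO library fell within the WT range, KO3 for sterol and KO1 for fatty acid, and KO2 was the highest of all. Without KO2 the fatty acid median log2 fold change was 0.044.

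The difference between the branches did not separate the genotypes. The sterol median less the fatty acid median was 0.07, -0.05 and -0.06 in KO and 0.06, 0.02 and -0.08 in WT. Summed CPM of the fatty acid genes was 1049 ± 76.3 in KO and 1124 ± 40.8 in WT (SD, n = 3 each). Scd2 alone averaged 273 ± 31.8 in KO and 386 ± 41.6 in WT. The sum of this branch was lower in KO while its median log2 fold change was above 0.

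**Figure D3:**
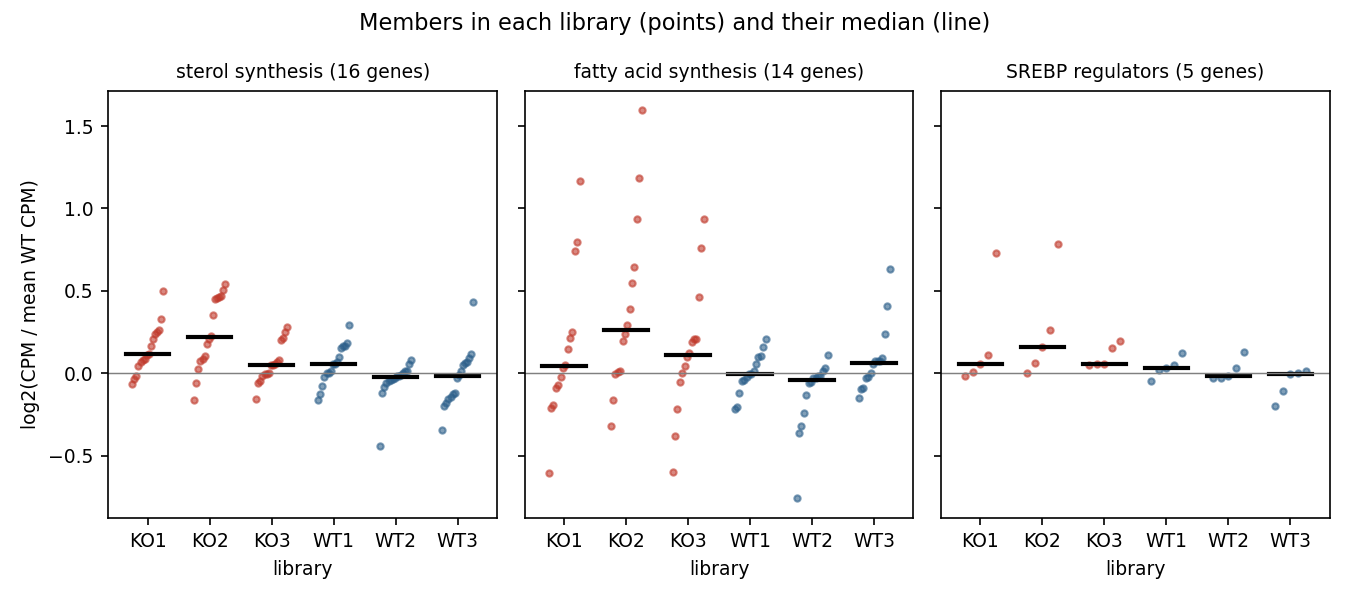
Log2 ratio of CPM to the mean WT CPM (y axis) of each gene (points) in each library, KO libraries left of WT libraries, in panels for sterol synthesis, fatty acid synthesis and SREBP regulators, with a line at each library's median. KO2 has the highest median in each panel, the KO3 sterol median of 0.05 lies beside the 0.06 of WT1, and the fatty acid genes scatter more widely than the sterol genes.

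Since the series addresses splicing, exon usage was tested as well. Of the 37 genes, 0 were called by diffSpliceDGE in edgeR with gene-level Simes p-values, 0 had an unadjusted Simes p under 0.05 and 0 were called by limma's diffSplice. Among all 15145 genes tested, 0.383% were called, 2.22% had an unadjusted Simes p under 0.05 and 1.62% were called by diffSplice. The smallest unadjusted Simes p was 0.159, for Elovl6. Of 840 tested parts in these genes 0 were called, against 0.0627% of all parts, and 9 had an unadjusted p under 0.05 (1.07%, against 1.16% of all parts).

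The gene-level differences ran along the whole transcripts. All 8 parts of Elovl7 and all 5 of Elovl6 had every KO library above every WT library, as had 14 of 15 tested parts of Me1. For Fasn the KO mean was higher in 45 of 45 tested parts, with no overlap in 28. In Scd2 all 8 parts, and in Elovl5 9 of 11, had every KO library below every WT library. The other genes with all KO libraries above WT had fewer such parts: Mvk 9 of 21, Mvd 5 of 10, Insig1 2 of 5, Fads1 7 of 12, Srebf1 15 of 46 and Srebf2 5 of 24. All genes named here already separated at the gene level, so these counts are a description and no further support.

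A change of start was looked at in Srebf1, chosen after its part values were seen. In mouse, an upstream first exon begins the SREBP-1a transcript and a downstream one the SREBP-1c transcript. The downstream exon (parts 44 to 46, chr11:60023838-60023967, minus strand, 130 bases) had 101, 110 and 95 counts in KO, against 44, 31 and 34 counts in WT. The upstream exon (part 47, chr11:60033955-60034106, 152 bases) had 365, 359 and 368 counts in KO, against 289, 270 and 331 counts in WT. Part 48, still farther upstream, had 2 to 6 counts in KO and 2 to 4 counts in WT, did not pass the filter on low counts and is left out of the shares. Scaled to library size, the downstream exon averaged 0.429 ± 0.0627 CPM in KO and 0.186 ± 0.0454 CPM in WT, and the upstream exon 1.52 ± 0.114 CPM in KO and 1.503 ± 0.0513 CPM in WT (SD, n = 3 each).

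The downstream exon took 21.7%, 23.5% and 20.5% of the counts of these 2 first exons in KO, against 13.2%, 10.3% and 9.32% in WT. Every KO library lay above every WT library, and the difference was 10.9 percentage points, given without a test because the exon was chosen for its values. Per base, the downstream exon had 0.328 of the upstream exon's counts in KO and 0.144 in WT. A read spanning several of parts 44 to 46 is counted in each, and the upstream exon is a single part. The downstream shares and ratios may therefore be too high in both groups. Leaving out any 1 library gave differences of 10.1 to 12.1 points. Part 44, inside the downstream exon, had the smallest unadjusted exon usage p of all 840 parts (0.00852) and did not pass the edgeR test after adjustment (adjusted p = 1.00). Scarce parts elsewhere also stood out: part 6, of 205 bases toward the 3′ end, had 47, 54 and 45 counts in KO, against 14, 23 and 27 counts in WT. The rest of the gene, parts 1 to 43, held nearly all its counts and averaged 78.0 ± 5.63 CPM in KO and 69.8 ± 0.813 CPM in WT (SD, n = 3 each).

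**Figure D4:**
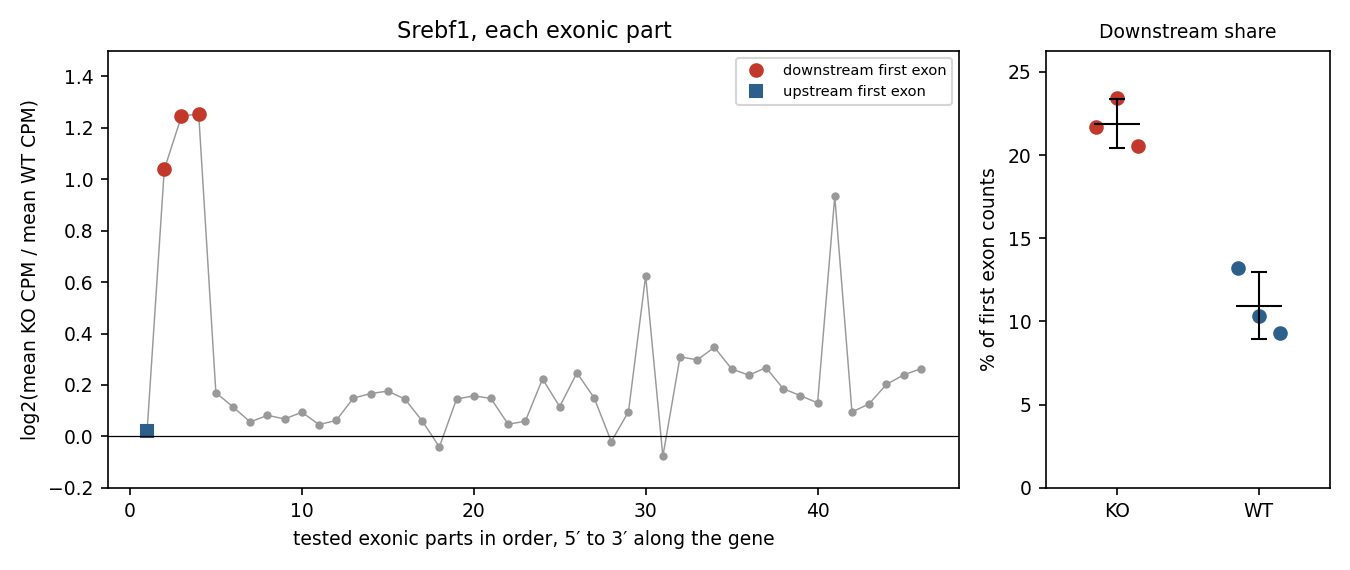
Left, log2 ratio of KO over WT CPM (y axis) for the tested exonic parts of Srebf1 in order along the gene (x axis), with the first exons marked. Right, the percentage of first exon counts in the downstream exon per library (y axis, starting at 0), where KO libraries lie at 20.5% to 23.5% and WT libraries at 9.32% to 13.2%.

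Neighbouring pathways were described from lists of other genes. The 10 genes of SREBP processing and turnover (median log2 fold change 0.02), the 13 of the isoprenoid branch (-0.01) and the 19 of sterol transport, esterification and LXR signalling (0.07) held 0 called genes in either direction. At an unadjusted p under 0.05 these 3 lists held 1, 1 and 2 genes higher in KO and 0, 2 and 2 lower, where 11.5% of all genes were higher and 11.2% lower. Of 26 tested genes of other lipogenesis and glycerolipid synthesis (median 0.04), 3 rose and 1 fell, where 1.62% of all genes were called higher in KO and 1.76% lower. Acsl4, an acyl-CoA synthetase that prefers arachidonate, averaged 268 ± 14.5 CPM in KO and 128 ± 24.5 CPM in WT (log2 fold change 1.06, edgeR adjusted p = 0.0257). Acsl5, another synthetase, averaged 157 ± 12.8 in KO and 123 ± 4.21 in WT (0.35, edgeR adjusted p = 0.0498), and the triglyceride enzyme Dgat2 10.5 ± 0.403 in KO and 6.45 ± 1.10 in WT (0.71, edgeR adjusted p = 0.0479). The thioesterase Acot1 fell to 5.26 ± 0.241 CPM in KO, against 9.61 ± 1.14 CPM in WT (-0.87, edgeR adjusted p = 0.0257; SD, n = 3 each throughout).

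Of 20 genes of fatty acid oxidation (median 0.00), 0 rose and 2 fell, against the same shares of all genes. The carnitine-acylcarnitine carrier Slc25a20 averaged 25.8 ± 2.69 CPM in KO and 35.4 ± 1.03 CPM in WT (log2 fold change -0.46, edgeR adjusted p = 0.0466; SD, n = 3 each). The thiolase Acaa2 averaged 53.2 ± 0.842 CPM in KO and 66.3 ± 3.01 CPM in WT (log2 fold change -0.32, edgeR adjusted p = 0.0331; SD, n = 3 each).

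Markers of tubule, myeloid and parietal cells leaned higher in KO, though most did not pass the test. The log2 fold change was above 0 in all 12 proximal tubule, 10 loop and distal, 9 myeloid and 3 parietal markers, against 50.9% of all genes. At an unadjusted edgeR p under 0.05, 5, 8, 8 and 3 of them were higher in KO and 0 lower, against 11.5% and 11.2% of all genes. Of all genes, 1.62% were called higher in KO and 1.76% lower. The summed CPM of 12 proximal tubule markers was 1129, 1458 and 979.9 in KO and 672, 566 and 1151 in WT, and 2 of the 12 rose. The sum of 10 markers of loop, distal tubule and collecting duct was 518, 1384 and 260.3 in KO and 327, 177 and 262 in WT, with 1 called. Of 9 myeloid markers 4 rose, and their sum was 191, 191 and 212 CPM in KO and 129, 97.8 and 118 CPM in WT. The parietal epithelium sum over 3 markers was 91.1, 111 and 85.9 CPM in KO and 66.8, 51.6 and 59.6 CPM in WT, with 1 risen gene. The podocyte sum over 8 markers was 20311 to 22093 CPM in KO and 22499.8 to 25223 CPM in WT, and 1 fell.

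The part of these cells in the lipid gene results was not tested. KO2, the highest library for Elovl7, Elovl6, Me1 and Fasn, was also the highest for both tubule sums. The median log2 ratio of the proximal tubule list was 0.51, 0.83 and 0.29 in KO and -0.11, -0.16 and 0.03 in WT, higher in every KO library. In KO3 the loop and distal sum, at 260.3 CPM, lay within the WT range. The myeloid and parietal sums of KO3, at 212 and 85.9 CPM, lay above those of every WT library. Elovl7 in KO3 had 14.9 CPM, against at most 8.98 CPM in WT, and Elovl6 16.4 CPM, against at most 10.2 CPM in WT. The 7 endothelial and 6 mesangial and stromal markers held 0 called genes, and at an unadjusted p under 0.05 they held 0 higher and 1 lower. Of 6 adipocyte markers, Adipoq, Plin1, Lep and Cidec were each under 0.05 CPM in every library, and Lep was at 0 in all KO libraries. Fabp4, which capillary endothelium also expresses, carried that sum, with 42.0, 58.6 and 68.5 CPM in KO and 70.3, 86.4 and 107 CPM in WT.

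**Figure D5:**
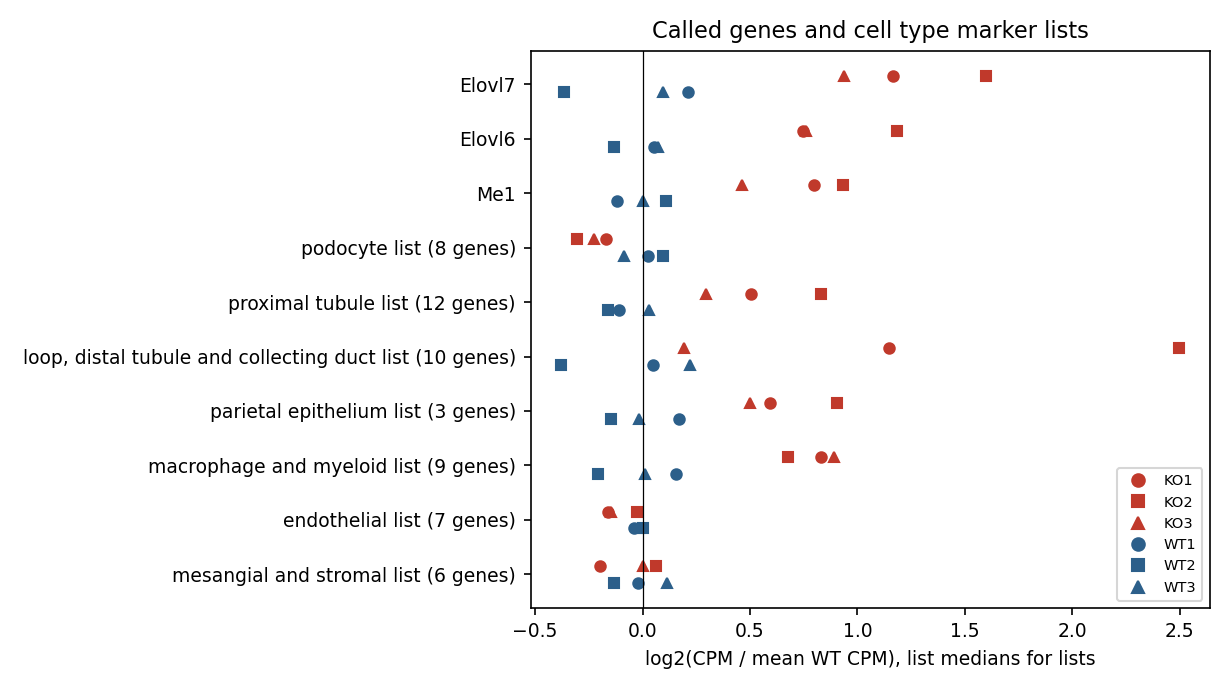
Log2 ratio of CPM to the mean WT CPM (x axis) for the 3 called genes and, as the median over genes, for 7 marker lists, with the KO libraries of each row above its WT libraries and 1 marker shape per replicate number. KO2 is farthest right for Elovl7, Elovl6, Me1 and both tubule lists. KO3 lies right of all WT libraries for the 3 genes and for the proximal tubule, parietal and myeloid lists. For the loop, distal tubule and collecting duct list KO3, at 0.19, lies left of WT3 at 0.22.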

How the data were processed

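Polyadenylated RNA was sequenced by the authors; per the submitters' processing notes, TopHat 1.4.1 was used, and the build named there, GRCh37, is a human one, against the mouse build NCBIM37 with Ensembl 67 in the file headers. The deposited tables hold raw counts, covered bases and the covered fraction per exonic part, as the authors made them; the fraction was not used in the results. No source used here gives the counter, its strand setting or its treatment of shared reads, so reads of overlapping or antisense genes cannot be told apart. Part counts were added up per gene, which counts a read more than once where it spans several parts. Symbols were matched by Ensembl identifier to a later mouse annotation (31300 of 35981 single identifiers), and 908 identifiers join overlapping genes.

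Gene tests used edgeR 4.0.16 under R 4.3.3 (TMM, filterByExpr, quasi-likelihood test, KO against WT, no covariates, 19742 genes, Benjamini-Hochberg adjusted p under 0.05), and exon usage with its diffSpliceDGE. CPM are counts over the TMM-scaled library; library ratios add 0.1 CPM. Per-kilobase levels use all annotated exon bases. Promoters came from RefSeq on GRCm38.p6. Alternatives were DESeq2 1.42.0, limma 3.58.1 (voom), RLE scaling, other filters, other counting, a replicate block and leaving out each library. The scripts were tested on simulated data. The gene test recovered 21.4% of 1.5-fold, 53.4% of 2-fold and 81.2% of 4-fold changes. The exon usage test recovered 20.3%, 64.2% and 91.1% of these, so most simulated 1.5-fold changes were missed. The labels state no pairing of samples by replicate number, and the main fit assumed none. Within groups, chi-square per gene was 73.7 to 220.3, far above sampling noise, so none was treated as a duplicate.

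The members and lists were chosen with earlier results of these data known. Values per library are given for called genes, for the 2 smallest p of each branch with no call, and for Srebf1, Srebf2, Fasn and Scd1; values of Sqle, Cyp51, Scd2, Elovl5, Fads1, Acly and Abca1 were added after they were seen. Of the other lists only called genes, and Fabp4, Kdr and Itga8 (chosen after their values were seen), are named with values.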

Additional observations from a re-analysis of the deposited data

How the results depend on the processing

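The count of called genes among the 37 (3) was 3 with RLE scaling, with no filter and with parts that overlap no other gene, 4 with a filter of 1 CPM in 3 libraries (Fasn added), 2 with the longest part alone and 2 with limma-voom. It was 0 with a replicate block, 8 with DESeq2 and 0 to 2 with 1 library left out. Over all genes the count (666) was 82 with the replicate block, 424 with the longest part alone, 2766 with DESeq2 and 31 to 254 with 1 library left out. Same-numbered libraries did not deviate together in every pair (r = 0.11, -0.06 and 0.16), so the block rests on a number only. The median log2 fold change of the fatty acid genes was 0.25 with the longest part alone and 0.044 (without KO2) to 0.22 with 1 library left out, and that of the regulators 0.15 and 0.061 to 0.13; the sterol median was 0.17 without the unit that holds Tm7sf2, an alternative chosen after seeing the data. Leaving out 1 library gave Cd2bp2 a log2 fold change of -0.36 to -0.31. Genes with differential exon usage (58) were 245 by limma's diffSplice and 35 (without WT2) to 71 with 1 library left out, with 0 of the 37 in each. Of 518 member values over 14 alternatives, 475 kept direction and side of the threshold, 21 fell below it, 7 passed it and 15, in 11 genes with log2 fold changes of -0.06 to 0.13, changed sign. The sign changes with the longest part alone were Acly 0.015, Acss2 -0.012 and Stard4 0.015; those with 1 library left out were within these ranges: Pmvk -0.10 to 0.0069, Lss -0.013 to 0.10, Nsdhl -0.042 to 0.033, Hsd17b7 -0.0028 to 0.15, Ebp -0.0053 to 0.082, Scap -0.00073 to 0.039, Fads2 -0.090 to 0.32, Stard4 -0.11 to 0.0031, Abca1 -0.26 to 0.14. The causes were not tested. Each of the 37 genes had at least 869 counts in every library, while the Srebf1 downstream exon rests on 31 to 110 counts.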
